A study of Mus musculus with 9 samples.

Results

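The genes described here encode the proteins of the cytosolic ribosome. They were taken by name from the deposited gene table: every protein-coding gene whose symbol starts with Rpl, Rps, Rplp or Rpsp followed by a digit, leaving out the S6 kinases (Rps6k) and rows marked as pseudogenes (-ps). This rule found 85 of 54532 genes, 52 named for the large subunit and 33 for the small subunit, on 19 chromosomes with 14 of them on chromosome 7. It used symbols only and no measured value. The rule also takes Rps19bp1, which encodes a binding partner of Rps19 and is no subunit of the ribosome, and it misses genes for ribosomal proteins with other names, of which Rpsa, Rack1 and Fau are given apart.

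RNA sequencing was done on cardiosphere-derived cells (CDCs) of C57BL/6 mouse heart in 3 groups of 3 libraries. By the labels the cells came from explant cultures of ventricle, and by the study's methods from pieces of epicardium peeled from it. The primary cells (pECDCs) carried no added gene and no treatment. The immortalized cells (iECDCs) carried hTERT, the catalytic subunit of human telomerase, and were collected at passage 30 without treatment. The third group had been kept for 3 days with SB431542, a small molecule that blocks the kinase of the type I TGF-β receptor. The sample labels describe these last cells as immortalized cells at passage 30, whereas the study's methods describe treated cells of an epithelial clone derived from primary cells, so the comparison of treated cells with iECDCs holds the treatment and possibly the origin of the cells. hTERT and passage number also changed together between pECDCs and iECDCs and cannot be told apart. The labels call the libraries triplicates, the methods name fewer biological replicates, and nothing says that the libraries came from separate cultures, so p-values measure only the spread between these libraries, which may be technical.

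A ribosome is built from ribosomal RNAs and about equal numbers of copies of its many proteins, and its genes are among the most strongly transcribed in dividing cells. Most mammalian ribosomal protein mRNAs begin with a cytosine followed by a run of pyrimidines at the very 5′ end, called a TOP motif, which places their translation under the control of mTORC1 and Larp1. A few ribosomal proteins have a second gene (a paralog, such as Rpl22l1 for Rpl22 or Rps27l for Rps27), whose product can stand in for the parent protein in some cells. Unused Rpl5 and Rpl11 bind Mdm2 and thereby link ribosome production to p53.

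The start sites were read from a supplied set of 300-base windows at RefSeq starts of GRCm38.p6. It held 65 of the 85 genes, and a gene missing from this set may still be annotated in RefSeq. A C at the annotated start followed by at least 4 pyrimidines stood at 1 or more starts of 14 of the 65 genes (21.5%), against 3.01% of 27025 genes in the same set. An annotated start can lie some bases from the one the cells use, so this count describes the annotation. The letters CCGGAAG, the core that ETS-family factors recognise, occurred on either strand of the window of 300 bases (250 before the start and 50 after) in 38.5% of the ribosomal protein genes and in 9.93% of all genes. TATAA occurred on either strand in 27.7% and 28.0%. The windows of 30 bases that follow begin 8 bases before the start, and capitals mark the pyrimidine run from the start base on. They are shown for the S27 family, for Rpl22l1, Rplp0, Rpl38 and Rps21, whose levels are described further on, and for Rpl15, which had the longest run.

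Rps27, chr3:90213627-90213656, minus strand: ctttcgctCCTTTCCggcggtgacgacctc
Rps27rt, chr9:114982718-114982747, minus strand: atcccttgCTTTCCggcggtgacgacctcc
Rps27l, chr9:66946078-66946107, plus strand: tccccgccgcctctatcccggaagttgctg
Rpl22l1, chr3:28805500-28805529, plus strand: gcaagcccgttctcttcccacggctgcagc
Rplp0, chr5:115559459-115559488, plus strand: ggtttcgaggaccgcctggttctcctataa
Rpl38, chr11:114668572-114668601, plus strand: gcctcgttCTTTCCCCgttctcttcggttc
Rps21, chr2:180257371-180257400, plus strand: gacccgccCTCCTgcccaatagtgctgcgg
Rpl15, chr14:18270965-18270994, minus strand: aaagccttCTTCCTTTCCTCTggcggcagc

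Rps27 and Rps27rt carried a run at the start and shared the bases after it, whereas the window of Rps27l held no run at the start. The run reached 13 bases in Rpl15 and 5 in Rps21. The window of Rpl22l1 held pyrimidines close to the start but not from it on.

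Libraries held 16568306 to 23951392 counts. Levels of 1 gene across libraries are given as normalised CPM, the counts relative to library size after TMM scaling over the 9 libraries, and levels of different genes are set side by side only as the deposited FPKM, which is per gene length. A change was called at an adjusted p under 0.05 in edgeR's quasi-likelihood test over all genes that passed the count filter. The third iECDC library and the second treated library stood apart from their groups: their median absolute log2 distance from the other 2 libraries was 0.192 and 0.257, against 0.0617 to 0.156 in the other 7. Of the 7 mesenchymal markers all were above 3 counts, and their summed FPKM was 1272 to 1289 in pECDCs, 1211 to 1345 in iECDCs and 885 to 1292 in treated cells. Col1a1 and Itgb1 made up most of the sum, and single markers moved in opposite directions. From iECDCs to treated cells the mean FPKM was lower for Cd44 (72.9 to 22.9), Itgb1 (424 to 249), Eng (86.3 to 76.0) and Thy1 (135 to 125). It was higher for Ly6a (6.23 to 29.5), Pdgfra (10.6 to 20.5) and Col1a1 (528 to 599). Of 5 cardiomyocyte markers 2 passed 3 counts, with a summed FPKM of 0.0517 to 1.68 over all libraries and Myh6, Actn2 and Nppa at or under 3 counts. Of 5 endothelial markers 2 passed (at most 0.165 in sum, with Pecam1, Tek and Tie1 at or under 3 counts), and of 5 haematopoietic markers 3 passed (1.95 to 4.41, with Adgre1 and Cd3e at or under 3 counts). The 6 epicardial markers summed to 38.4 to 40.7 in pECDCs, 48.2 to 57.0 in iECDCs and 64.0 to 68.0 in treated cells. Most of this was Tbx18 (mean FPKM 19.6, 22.4 and 34.8 in the 3 groups) and Krt19 (19.0, 30.0 and 28.0). Wt1, Tcf21, Upk3b and Msln had a mean FPKM of at most 1.43 in any group. Each of them was lower in iECDCs than in pECDCs and highest in treated cells, and Wt1 had 2, 2 and 0 counts in iECDCs. The part of the epicardial markers in the results was not tested.

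Most of the genes were highly expressed. The mean FPKM over the 9 libraries was above 100 for 73 of the 85 genes, and the median gene had an FPKM of 281 in pECDCs, 303 in iECDCs and 282 in treated cells. The highest mean FPKM was that of Rplp1 (3074), a protein of the acidic stalk to which elongation factors bind. Rps2 (1604), Rplp0 (1479, the base of the stalk), Rps15 (994) and Rpl41 (979, which encodes the smallest protein of the set with a coding length of 75 bases) came next. This order depends on the gene length that FPKM divides by, which can exceed the length of the principal annotated mRNA. The 2 lengths were 1168 and 437 bases for Rpl41 and 2072 and 421 for Rplp2, but 499 and 499 for Rplp1. A ranking per mRNA length was not made. At the other end, 6 genes had a mean FPKM under 3. Rpl10l and Rpl39l, paralogs known from the male germ line, had 0 counts in every library, which allows at most 3 counts in a library or an unscaled CPM of 0.125 to 0.181. Rpl3l, the paralog of Rpl3 used in striated muscle, had a mean FPKM of 0.0251 and no more than 2 counts in any library. Rpl36al (0.936), Rpl24 (1.01) and Rps10 (2.55) were also low, and these values are doubtful as levels: 24.5%, 47.0% and 20.6% of the exon bases of these 3 genes lie under exons of a larger annotated gene on the same strand. The row of Rps10-ps2 held 168 to 231 normalised CPM, and with its pseudogene rows Rps10 reached 182 to 251 from 3.15 to 7.46 alone. Exons of a larger gene also lie over Rpl13a (mean FPKM 28.6), with 29.4%, and for Rpl19, with 3.52%. A counter that drops reads shared by 2 genes would lower them, and which counter was used is not given in the sources used here.

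Together the 85 genes took 4.98%, 5.02% and 5.21% of all counts in the 3 pECDC libraries (5.07 ± 0.124, SD, n = 3). In iECDCs the share was 5.27%, 4.94% and 5.55% (5.25 ± 0.305). In treated cells it was 4.997%, 6.07% and 5.14% (5.40 ± 0.582). The ranges of the 3 groups overlapped, and the highest share in each of the later groups belonged to the library that stood apart. The 95% Wilson interval of a library's share reached at most 0.0110 percentage points to either side, and it covers counting error only. Both subunits followed the total: the large-subunit genes took 2.94% ± 0.0786 in pECDCs, 3.08% ± 0.198 in iECDCs and 3.20% ± 0.346 in treated cells, and the small-subunit genes 2.13% ± 0.0459, 2.18% ± 0.110 and 2.21% ± 0.237 (SD, n = 3 each).

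**Figure D1:**
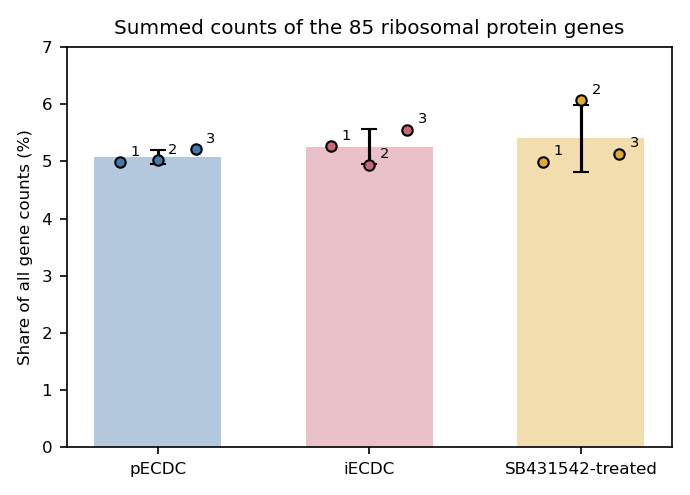
Share of all counts (%) taken by the 85 cytosolic ribosomal protein genes, with a point for each of the 9 libraries (numbered by replicate), a coloured bar for each group mean and an error bar for the SD. The shares lie between 4.94% and 6.07%, and the second treated library is the highest.

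Replicate libraries agreed most closely in pECDCs. The coefficient of variation of normalised CPM between the 3 libraries had a median over the genes of 3.24% in pECDCs, 9.14% in iECDCs and 12.4% in treated cells. Rpl28 was the least variable gene in pECDCs (0.767%) and in iECDCs (1.77%), and Rpl10 in treated cells (2.11%). The most variable were Rpl36al in pECDCs (28.4%), Rpl24 in iECDCs (53.1%), both at low counts, and in treated cells Rps27l (34.7%), which was well expressed.

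iECDCs were first compared with pECDCs, which asks how the primary and the immortalized, late-passage cells differ. Almost all of the genes stayed within a narrow band: 81 of the 82 genes that passed the filter had an absolute log2 fold change under 0.5. In this comparison 1 gene rose and 1 fell, 1.22% of the tested members in each direction, whereas 7.21% of all 13752 genes were called higher and 9.21% lower. At an unadjusted p under 0.05, 13 members were higher and 2 lower, against 15.0% and 16.5% of all genes. The direction was uneven all the same: the log2 fold change was positive for 67 of 82 members (81.7%) and for 49.7% of all genes, with a median of 0.10 among members and -0.0018 among all genes. All 3 iECDC libraries lay above all 3 pECDC libraries for 25 members (30.5%, all genes 19.6%) and below them for 2 (2.44%, all genes 20.0%). The median was 0.11 for the 49 large-subunit genes and 0.08 for the 33 small-subunit genes. Without the third iECDC library, 11 members rose and 2 fell and the median was 0.04, while 15.5% of all genes were called higher and 16.2% lower. Without any 1 of the pECDC libraries 0 members were called higher, and without the first or second iECDC library at most 1. Calls over all genes were also fewer without a pECDC library, at 360 to 374 higher of 13956 to 14024 genes. Without the first or second iECDC library they were 976 of 13998 and 771 of 14067.

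The gene that rose was Rpl13a (ENSMUSG00000074129, chr7:45125558-45128761), a large-subunit protein also known as part of the GAIT complex that silences certain mRNAs. Its normalised CPM was 53.1, 52.5 and 53.3 in pECDCs, 61.0, 61.2 and 68.5 in iECDCs and 62.3, 68.5 and 67.4 in treated cells. The pECDC libraries lay below all others, while iECDCs and treated cells overlapped. Its log2 fold change was 0.26 ± 0.07 (SE, adjusted p = 0.0321) in iECDCs over pECDCs and 0.33 ± 0.06 (adjusted p = 0.00827) in treated cells over pECDCs, subject to the overlap with a larger gene given above. The first call was lost in 6 of 19 alternatives (adjusted p up to 0.132) and the second in 3 (up to 0.055).

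The gene that fell was Rpl22l1 (ENSMUSG00000039221, chr3:28805436-28807424), the paralog of Rpl22. Its normalised CPM was 62.8, 62.3 and 66.8 in pECDCs, 56.9, 52.9 and 51.1 in iECDCs and 60.5, 70.5 and 57.9 in treated cells. The iECDC libraries lay below the libraries of both other groups, which overlapped each other. This gave a log2 fold change of -0.26 ± 0.07 (SE, adjusted p = 0.0337) in iECDCs over pECDCs, 0.24 ± 0.11 (adjusted p = 0.132) in treated cells over iECDCs and -0.01 ± 0.09 (adjusted p = 0.949) in treated cells over pECDCs. The call was lost in 6 of 19 alternative settings, with adjusted p between 0.00849 and 0.162. Of its stretches of 100 bases, 40.6% occurred in other transcripts. Its parent Rpl22 had 282, 279.8 and 297 normalised CPM in pECDCs, 316, 303 and 345 in iECDCs and 294.5, 346 and 296 in treated cells. There all iECDC libraries lay above all pECDC libraries, but the difference of 0.16 ± 0.07 on the log2 scale did not pass the test (adjusted p = 0.145).

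Treated cells were next compared with iECDCs, which by the labels asks what 3 days of TGF-β receptor inhibition did. No member rose and 2 fell by edgeR (2.44% of those tested), whereas 16.0% of all 13559 genes were called higher and 14.0% lower. DESeq2 called 0 higher and 5 lower, against 2318 and 2162 of all 13559 genes. At an unadjusted p under 0.05 in edgeR 1 member was higher and 7 lower, against 22.4% and 21.0% of all genes. By sign, the log2 fold change was negative for 55 of 82 members and positive for 27 (32.9%, all genes 50.1%), with a median of -0.09 against 0.0014 over all genes. All treated libraries lay below all iECDC libraries for 5 members (6.10%, all genes 22.9%) and above them for 2 (2.44%, all genes 23.6%). Without the second treated library 25 members fell and 0 rose, while 24.8% of all genes were called lower and 25.3% higher. Without that library and the third iECDC library 41 fell and 9 rose, with a median of -0.14, while 31.9% of all genes were called lower and 32.6% higher. Without the first or second iECDC library, or the first or the third treated library, 0 members fell. In those fits 707 to 765 of 13774 to 13983 genes were called lower.

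The 2 that fell were Rps19bp1 and Rps27l. Rps19bp1 (chr15:80260615-80264315), known as a regulator of the deacetylase Sirt1, had 37.5, 37.4 and 40.5 normalised CPM in pECDCs, 47.6, 41.4 and 43.3 in iECDCs and 23.1, 36.2 and 20.4 in treated cells. Treated cells lay below both other groups, with the second treated library close to them. Over iECDCs its log2 fold change was -0.72 ± 0.20 (SE, adjusted p = 0.0304), and -1.02 without the second treated library (adjusted p = 0.000104, range over 19 alternatives 3.14e-11 to 0.11, with the call lost in 5).

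Rps27l (ENSMUSG00000036781, chr9:66946086-66949516), the paralog of Rps27 and a known p53 target, had 258, 259 and 269 normalised CPM in pECDCs, 273, 256 and 267 in iECDCs and 125, 232 and 141 in treated cells. The treated libraries lay below all others, but the second was nearer to the other groups than to its own. Its log2 fold change was -0.67 ± 0.21 (SE, adjusted p = 0.0456) over iECDCs and -0.65 ± 0.21 (adjusted p = 0.0507) over pECDCs. Without the second treated library it was -0.99 over iECDCs (adjusted p = 5.29e-05, range over 19 alternatives 1.18e-13 to 0.153, with the call lost in 7). None of its stretches of 100 bases occurred elsewhere in the transcripts.

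Treated cells were last compared with pECDCs, from which by the labels they differ in hTERT, passage and SB431542 together. These cannot be told apart in this comparison. Here 9 members rose and 7 fell, 11.0% and 8.54% of those tested, and 17.9% of all 14015 genes were called higher and 17.0% lower. At an unadjusted p under 0.05, 14 members were higher and 13 lower, against 23.8% and 22.4% of all genes. The log2 fold change was positive for 44 of 82 members (53.7%, all genes 50.7%), with a median of 0.04 against 0.0068 over all genes, and 74 of 82 changed by less than 0.5. All treated libraries lay above all pECDC libraries for 16 members (19.5%, all genes 24.8%) and below them for 13 (15.9%, all genes 26.8%). The large-subunit genes gave 6 higher and 2 lower of 49, and the small-subunit genes 3 higher and 5 lower of 33. Without the second treated library, 16 members rose and 37 fell and the median was -0.05, while 31.7% of all genes were called higher and 32.3% lower. Without any other 1 library, 2 to 7 members rose and 2 or 3 fell. Of 14297 to 14413 genes, 1240 to 1736 were then called higher and 1213 to 1654 lower. No member called in this comparison was called in treated cells over iECDCs, where only Rps19bp1 and Rps27l were. The 3 comparisons share libraries and are not independent of each other.

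**Figure D2:**
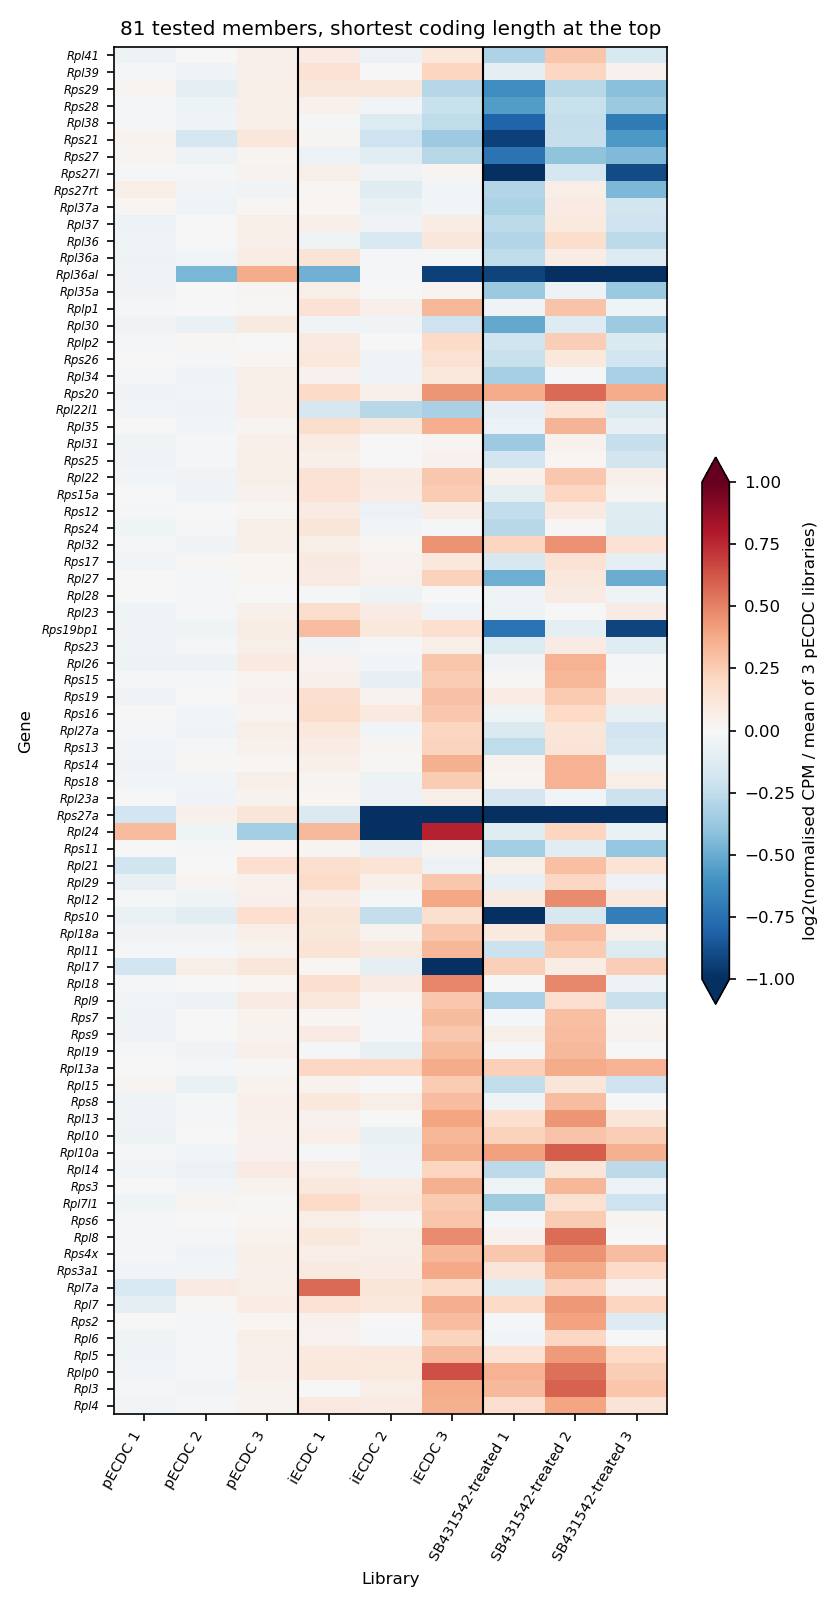
Heat map of the log2 ratio of normalised CPM to the gene's mean in pECDCs for 81 of the 82 tested genes (rows, shortest coding length at the top) in the 9 libraries (columns), with colours ending at -1 and 1. The third iECDC and the second treated library stand out by higher values among the longer genes.

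Of the genes that rose in treated cells over pECDCs, Rpl10a (ENSMUSG00000037805, chr17:28328471-28331033), a large-subunit protein, moved most. It had 534, 530.3 and 558 normalised CPM in pECDCs, 535, 519.7 and 697 in iECDCs and 718, 822 and 694 in treated cells. Treated cells lay above pECDCs, and the third iECDC library reached their range. The log2 fold change was 0.48 ± 0.09 (SE, adjusted p = 0.00646) over pECDCs and 0.36 ± 0.15 (adjusted p = 0.105) over iECDCs, and the call over pECDCs held in 19 of 19 alternatives. Of its stretches of 100 bases, 87.1% occurred in other transcripts, so reads may be split with them.

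Rps20 (chr4:3831334-3835665), a small-subunit protein, had 459, 459 and 489 normalised CPM in pECDCs, 535, 487 and 637 in iECDCs and 606, 693 and 607 in treated cells. Treated cells lay above pECDCs and overlapped iECDCs. Its log2 fold change over pECDCs was 0.45 ± 0.08 (SE, adjusted p = 0.00657), it too held in 19 of 19 alternatives, and 5.90% of its stretches of 100 bases were shared. Over iECDCs the log2 fold change was 0.21 ± 0.14 (adjusted p = 0.281). Rps20 has a short coding part of 357 bases but the longest mRNA of the set, 3706 bases.

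Rplp0 (ENSMUSG00000067274, chr5:115559467-115563727) had 2050.0, 2060.2 and 2165 normalised CPM in pECDCs, 2246, 2242 and 3275 in iECDCs and 2657, 3072 and 2484 in treated cells. Both later groups lay above pECDCs and overlapped each other. This made a log2 fold change of 0.40 ± 0.10 (SE, adjusted p = 0.0197) in treated cells and 0.30 ± 0.14 (adjusted p = 0.171) in iECDCs, each over pECDCs. The other stalk genes did not follow it past the test: over pECDCs, treated cells differed by 0.09 ± 0.10 for Rplp1 (adjusted p = 0.52) and by -0.01 ± 0.12 for Rplp2 (adjusted p = 0.976). Rplp1 had an FPKM of 2832, 2897 and 2905 in pECDCs, 3203, 2999 and 3676 in iECDCs and 2829, 3515 and 2811 in treated cells. Rplp2 had 566, 582 and 578 normalised CPM in pECDCs, 613, 578 and 656 in iECDCs and 501, 682 and 521 in treated cells. In both genes the treated libraries spanned the pECDC range.

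The other genes that rose in treated cells over pECDCs did so by 0.27 to 0.42 on the log2 scale. Among them were Rpl3 (0.42, adjusted p = 0.0173), a protein close to the peptidyl transferase centre, Rps4x (0.36, adjusted p = 0.0138), the X-linked small-subunit gene, Rpl13a, Rpl7 (0.30, adjusted p = 0.0421) and Rpl10 (0.27, adjusted p = 0.0253), a late-joining large-subunit protein. Rpl3 went from 1111 to 1158 normalised CPM in pECDCs to 1366 to 1702 in treated cells, and Rpl10 from 757 to 807 to 917 to 956. In each of these genes the treated and pECDC libraries did not overlap. Of 19 alternatives, the call was lost in 10 for Rpl7, in 8 for Rpl10, in 7 for Rplp0 and in 4 each for Rpl3 and Rps4x. Stretches of 100 bases shared with other transcripts made up 91.6% in Rpl10, 79.4% in Rpl3, 34.8% in Rps4x and 28.2% in Rpl7.

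Of the genes that fell in treated cells over pECDCs, Rps27a changed most (ENSMUSG00000020460, chr11:29545846-29548109). It encodes ubiquitin fused to a small-subunit protein and is thus one source of the cell's ubiquitin. Its normalised CPM was 374, 442 and 464 in pECDCs, 387, 185 and 202 in iECDCs and 145, 199 and 163 in treated cells. Treated cells lay below all pECDC libraries, and the first iECDC library was within the pECDC range while the other 2 lay near the treated ones. Its log2 fold change was -1.32 ± 0.14 (SE, adjusted p = 0.000931) in treated cells over pECDCs, -0.73 ± 0.25 (adjusted p = 0.0764) in iECDCs over pECDCs and -0.61 ± 0.28 (adjusted p = 0.128) in treated cells over iECDCs. Over 19 alternatives the first of these stayed between -1.45 and -1.14 and was called each time. Of its stretches of 100 bases, 69.1% occurred in other transcripts. With the rows of its pseudogenes added, its summed level was 387 to 477 normalised CPM in pECDCs, 208 to 406 in iECDCs and 160.3 to 218 in treated cells and treated cells again lay below all pECDC libraries.

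The remaining genes that fell in treated cells over pECDCs, apart from the doubtful Rpl36al (-1.10 ± 0.29, adjusted p = 0.0242, from 0.725 to 2.25 normalised CPM over the libraries), encode very small ribosomal proteins, with coding lengths of 168 to 252 bases. Rpl38, a large-subunit protein known for its part in the translation of Hox mRNAs, had 314, 308 and 331 normalised CPM in pECDCs, 315, 289 and 266 in iECDCs and 182, 269.8 and 194.5 in treated cells (-0.55 ± 0.14, SE, adjusted p = 0.025). Rps21 had 365, 317 and 386 in pECDCs, 364, 309 and 277 in iECDCs and 186, 303 and 239 in treated cells (-0.54 ± 0.17, adjusted p = 0.0465). Treated and pECDC libraries did not overlap in either gene, but the second treated library came close to pECDCs in both. Over iECDCs the log2 fold change was -0.42 for Rpl38 (adjusted p = 0.0801) and -0.38 for Rps21 (adjusted p = 0.159). Rps27 fell by 0.50 on the log2 scale (adjusted p = 0.00851), Rps29 by 0.42 (adjusted p = 0.018) and Rps28 by 0.36 (adjusted p = 0.0248). Of 19 alternatives, the call was lost in 9 for Rps21, in 7 for Rps28 (log2 fold change as near 0 as -0.04), in 6 for Rpl38, in 5 for Rpl36al, in 4 for Rps29 and in 1 for Rps27. Shared stretches of 100 bases made up 66.9% in Rps28, 46.3% in Rpl38, 24.7% in Rps29 and 0% in Rps21.

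**Figure D3:**
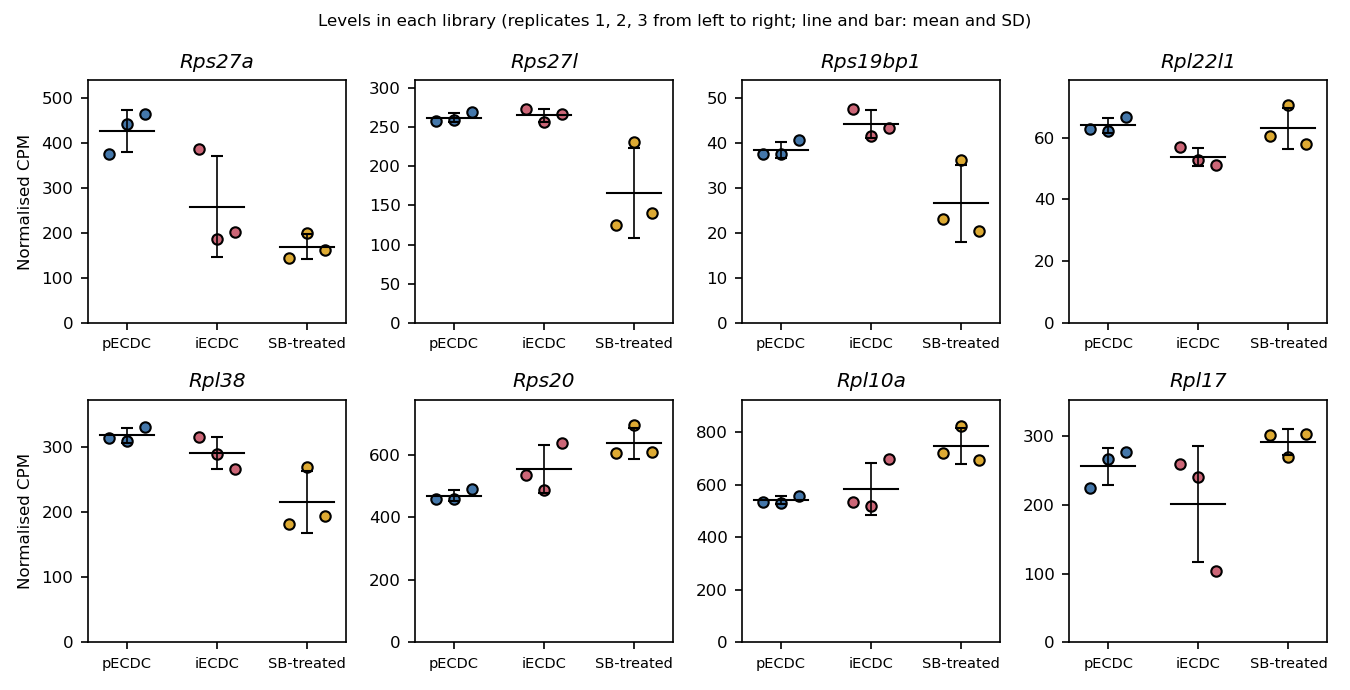
Normalised CPM of selected ribosomal protein genes in the 9 libraries, with a point for each library, a line for each group mean and an error bar for the SD. Rps27a runs from 374 to 464 in pECDCs to 145 to 199 in treated cells, and Rps27l is low in 2 of the 3 treated libraries.

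The genes that rose and those that fell in treated cells over pECDCs differed in length. Of the 9 that rose, 8 had a coding length over 600 bases and 1 (Rps20) had at most 400. Of the 7 that fell, 6 had at most 400 and none had over 600. Over all 82 tested members the log2 fold change went with coding length, with a Spearman rho of 0.62 in treated cells over pECDCs, 0.58 in iECDCs over pECDCs and 0.47 in treated cells over iECDCs. These are correlations across genes of the same libraries, given as a description. Among other protein-coding genes rho was 0.16, -0.10 and 0.19. Among the 50 members with at most 50% of their stretches of 100 bases shared, it was 0.65, 0.62 and 0.53.

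In treated cells over pECDCs the median log2 fold change was -0.10 for the 29 members of at most 400 coding bases, 0.04 for the 31 above that and up to 600 bases and 0.25 for the 22 longer ones. Among other protein-coding genes it was -0.22 for those of at most 400 bases and 0.02 for those over 600. In treated cells over iECDCs, 2 of the 29 short members had a positive value. In iECDCs over pECDCs all 22 long members had a positive value, with a median of 0.17 against 0.03 for the short ones. The gradient was present in each treated library against the pECDC mean, with a rho of 0.61, 0.61 and 0.57. In the iECDC libraries rho was 0.15, 0.37 and 0.63, highest in the library that stood apart, and in the pECDC libraries themselves -0.19, 0.28 and -0.05. In the first treated library the short members had a median of -0.29 and the long ones 0.13, in the second 0.07 and 0.38, and in the third -0.19 and 0.13. The second treated library was thus higher in both classes, with a like distance between them.

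With an offset that removes the overall relation of each library's counts with mRNA length, 34 members rose and 2 fell in treated cells over pECDCs, with a median of 0.20, while 18.5% of all genes were called higher and 16.8% lower. RNA quality and fragment size were not among the values used here, and their part in the gradient was not tested.

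**Figure D4:**
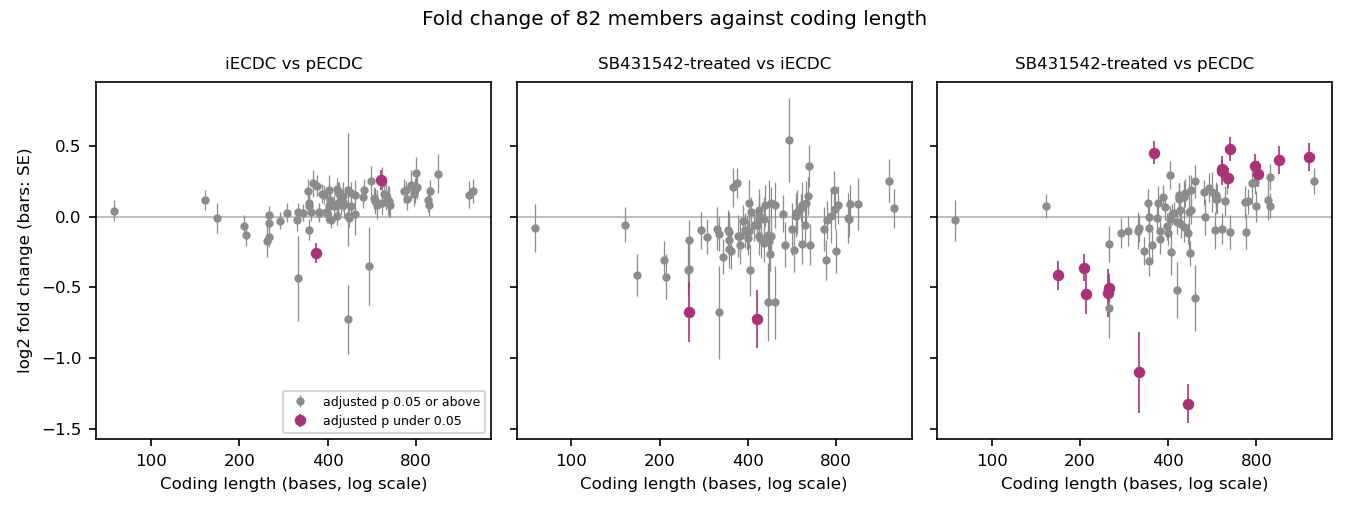
Log2 fold change of the 82 tested genes against coding length (bases, log axis) in the 3 comparisons, with called genes in purple and error bars for the SE. Spearman rho across genes is 0.58 in iECDCs over pECDCs, 0.47 in treated cells over iECDCs and 0.62 in treated cells over pECDCs.

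Rpl5 and Rpl11, which bind Mdm2 together with a small ribosomal RNA when not built into ribosomes, passed no test. Rpl5 had 701, 716 and 744 normalised CPM in pECDCs, 772, 775 and 903 in iECDCs and 796, 970.4 and 828 in treated cells. Both later groups lay above pECDCs, with a log2 fold change of 0.28 ± 0.09 (SE, adjusted p = 0.0534) in treated cells. Rpl11 had 758, 758 and 786 in pECDCs, 842, 816 and 965 in iECDCs and 660.3, 921 and 696 in treated cells. Here the treated libraries lay on both sides of pECDCs, and the log2 fold change was -0.00 ± 0.13 (adjusted p = 0.993).

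Of the 6 genes of the p53 checkpoint that these proteins feed into, 3 fell in treated cells over iECDCs and over pECDCs, and none was called in iECDCs over pECDCs. In treated cells over iECDCs the log2 fold change was -1.45 ± 0.14 for Mdm2 (SE, adjusted p = 0.000836), -1.15 for the cell cycle inhibitor Cdkn1a (adjusted p = 0.00476) and -0.97 for Ccng1 (adjusted p = 0.0129). It was -0.49 for Bax (adjusted p = 0.0712), -0.30 for Trp53 itself (adjusted p = 0.149) and 0.45 for Mdm4 (adjusted p = 0.0667). At an unadjusted p under 0.05 edgeR placed Trp53 and Mdm4 among the differences in iECDCs over pECDCs, with 0.23 (adjusted p = 0.113) and -0.28 (adjusted p = 0.0563). Neither was called, and at that cut-off 15.0% of all genes were higher and 16.5% lower. Rps27l, the p53 target among the ribosomal protein genes, fell in treated cells over iECDCs (-0.67) and differed by 0.01 in iECDCs over pECDCs (adjusted p = 0.898).

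The paralogs were also followed by their level relative to the parent gene, as the log2 ratio of FPKM, for 4 of 7 pairs with enough counts. With 3 libraries against 3 the exact permutation test cannot go below p = 0.1, and the smallest Benjamini-Hochberg value over the 12 tests was 0.171, so no ratio could pass. Rpl22l1 over Rpl22 was -1.61 ± 0.0074 (SD, n = 3) in pECDCs, -2.03 ± 0.152 in iECDCs and -1.76 ± 0.0393 in treated cells. The 3 groups did not overlap in this ratio (exact permutation p = 0.1 for each pair, two-sided), and iECDCs were 0.42 below pECDCs on the log2 scale. Rpl7l1 over Rpl7 was -2.68 ± 0.0546 in pECDCs, -2.70 ± 0.0757 in iECDCs and -3.10 ± 0.134 in treated cells, which lay below both other groups (exact permutation p = 0.1 each). Rps27l over Rps27 was 0.39 ± 0.0421, 0.55 ± 0.123 and 0.20 ± 0.362 in the same order, with treated cells overlapping both other groups (exact permutation p = 0.3 against iECDCs and 0.4 against pECDCs). Rpl36al over Rpl36a was -7.04 ± 0.364, -7.51 ± 0.462 and -8.02 ± 0.306, at 13 to 52 counts of Rpl36al.

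The level of Rpl7l1 itself was 150.3, 157 and 156 normalised CPM in pECDCs, 177, 167 and 185 in iECDCs and 121, 171 and 134 in treated cells, and no comparison passed the test (adjusted p = 0.0797 for iECDCs over pECDCs). Rps27rt, a retrotransposed copy of Rps27 kept as a gene, had 50.7, 47.9 and 47.6 in pECDCs, 49.5, 44.8 and 47.9 in iECDCs and 39.7, 51.0 and 35.7 in treated cells, and the groups overlapped. Rps27 had 260.0, 246 and 261 in pECDCs, 245, 238 and 211 in iECDCs and 154, 194 and 189 in treated cells, in 3 ranges without overlap. Since 98.4% of the stretches of 100 bases of Rps27 occurred in other transcripts, its counts and those of its copies can be mixed.

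Most of the genes shared sequence with other transcripts. Of the 85, 75 shared at least 1 stretch of 100 bases with another gene's transcripts, the median gene shared 36.9% and 32 genes over 50%. The table lists 287 pseudogene rows for 59 of the genes, which together took 0.188% to 0.244% of all counts. Rpl17 had 224, 266 and 276 normalised CPM in pECDCs, 259, 239.6 and 104 in iECDCs and 301, 269 and 303 in treated cells, so the third iECDC library was lowest. In that library its pseudogene Rpl17-ps10 was highest, at 370 normalised CPM against 96.5 to 214 in the others. How reads were assigned between the gene and this row was not tested. With the pseudogene rows added, Rpl17 had 669 in the third iECDC library and 513 to 673 over all libraries. Rpl7a was high in the first iECDC library alone (386 normalised CPM, others 235 to 307).

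Of Rpsa, Rack1 and Fau, 2 rose in treated cells over pECDCs and none was called in the other comparisons. In treated cells over pECDCs, Rpsa rose by 0.49 ± 0.12 on the log2 scale (SE, adjusted p = 0.0199) and Rack1, a scaffold on the small subunit, by 0.44 ± 0.12 (adjusted p = 0.0256). Fau (0.19, adjusted p = 0.141), which encodes a ribosomal protein fused to a ubiquitin-like protein, did not pass.

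The other genes of ribosome production and translation were taken in fixed lists, whose counts can be read against the shares of all genes given above. Of 52 ribosome assembly factors, 25 rose in iECDCs over pECDCs and none fell, with a median log2 fold change of 0.24, and 51 of 52 were positive. Mrto4 (0.59, adjusted p = 0.012), Rrp9 (0.50, adjusted p = 0.00738), a protein of the U3 particle, and Dkc1 (0.44, adjusted p = 0.00149), the pseudouridine synthase also found in telomerase, were among them. In treated cells over iECDCs 32 of the 52 fell and none rose, with a median of -0.73, led by Rrp9 (-1.26, adjusted p = 0.0149). Bysl and Gar1 fell by 1.04 each (adjusted p = 0.00641 and 0.0179). Over pECDCs, 18 fell in treated cells and 1 rose, with a median of -0.43. Without the third iECDC library 38 rose in iECDCs over pECDCs, and without the second treated library 49 fell in treated cells over pECDCs. Without both libraries 51 fell in treated cells over iECDCs. With all 9 libraries in 1 fit the calls of the first comparison were lost (0 of 52), at the same median, and 44 and 25 fell in the others. In that fit 208 of all 14210 genes were called higher in the first comparison, against 992 of 13752 with its 2 groups alone.

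Mitochondrial ribosomal proteins, which form the separate ribosome of that organelle, were followed in 77 tested genes. In iECDCs over pECDCs 3 rose (3.90%, all genes 7.21%) and none fell (median 0.06). In treated cells 27 fell against iECDCs (35.1%, all genes 14.0%, median -0.38) and 29 against pECDCs (37.7%, all genes 17.0%, median -0.31), and none rose. Mrps6 had a log2 fold change of 0.46 in iECDCs over pECDCs (adjusted p = 0.0288) and of -1.05 in treated cells over iECDCs (adjusted p = 0.00374), and Mrpl20 of 0.26 (adjusted p = 0.0198) and -0.82 (adjusted p = 0.0253). Their summed share of counts was 0.322% to 0.332% in pECDCs, 0.316% to 0.344% in iECDCs and 0.244%, 0.312% and 0.253% in treated cells. The second treated library was again nearest to the other groups. Without it 69 fell over pECDCs, and without it and the third iECDC library 69 fell over iECDCs. In those fits 32.3% and 31.9% of all genes were called lower.

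Translation factors known to have TOP mRNAs, as ribosomal proteins do, rose in treated cells over pECDCs in 7 of 11 cases, with a median of 0.32 and none lower. Eef2, the translocase, rose by 0.89 ± 0.09 (SE, adjusted p = 0.000948), Eif4b by 0.73 (adjusted p = 0.000854), Pabpc1, the poly(A)-binding protein, by 0.62 (adjusted p = 0.00365) and Eef1a1, which brings tRNAs to the ribosome, by 0.58 (adjusted p = 0.00318). In iECDCs over pECDCs 3 of the 11 rose, and in treated cells over iECDCs 1 did, Eif4b (0.57, adjusted p = 0.0148). Other initiation factors went the other way: 9 of 29 fell in treated cells over iECDCs and none rose (median -0.29), led by Eif2s1 (-0.996, adjusted p = 0.00903) and Eif3j1 (-0.79, adjusted p = 0.00473). Against pECDCs 9 of 29 fell and none rose (median -0.10), and in iECDCs over pECDCs 5 rose and none fell (median 0.17). Leaving out 1 library moved the falls to between 2 and 19 over iECDCs and between 2 and 20 over pECDCs, both highest without the second treated library. It moved the 5 that rose to 0 without any pECDC library and to 18 without the third iECDC library, and in the fit of all 9 libraries none rose.

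RNA polymerase I transcribes the ribosomal RNA precursor. Of its 15 genes, 4 rose in iECDCs over pECDCs (26.7%, all genes 7.21%), with a median of 0.15. In treated cells over iECDCs 4 fell (26.7%, all genes 14.0%), with a median of -0.28. Cd3eap was called in both, with 0.47 (adjusted p = 0.0209) and -0.81 (adjusted p = 0.0146). Over pECDCs, 2 fell in treated cells (13.3%, all genes 17.0%), with a median of -0.25. The first count became 0 without any 1 pECDC library or with all 9 libraries in 1 fit, and 7 without the third iECDC library. The second ran from 0 without the first or the third treated library to 8 without the second, and the third from 0 to 9. Of 19 genes of mTORC1, its regulators and Myc partners, 3 rose and 1 fell in iECDCs over pECDCs (15.8% and 5.26%, all genes 7.21% and 9.21%). In treated cells over iECDCs 3 rose and 3 fell (15.8% each, all genes 16.0% and 14.0%). In treated cells over pECDCs 4 rose and 4 fell (21.1% each, all genes 17.9% and 17.0%). Max, the partner of Myc, fell by 0.31 in the first (adjusted p = 0.0322), by 0.63 in the second (adjusted p = 0.00777) and by 0.93 in the third (adjusted p = 0.000349).

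**Figure D5:**
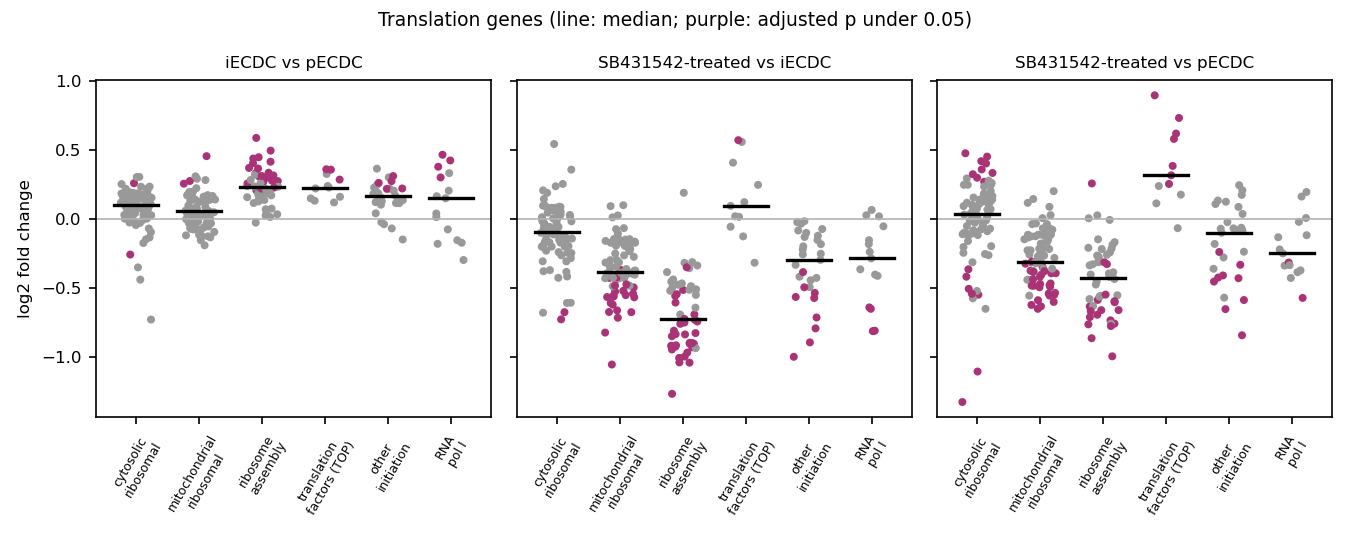
Log2 fold changes of single genes, by gene list, in the 3 comparisons, with called genes in purple and a line for each list's median. Cytosolic ribosomal proteins have medians of 0.10, -0.09 and 0.04, and ribosome assembly factors of 0.24, -0.73 and -0.43.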

How the data were processed

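The authors deposited a table of gene counts and FPKM values for 9 libraries. Per the labels and the submitters' processing notes, reads were aligned with TopHat2 2.0.9 and Bowtie2 2.0.6 to mm9, yet the coordinates in the table are those of GRCm38 (the same start and end as GENCODE M21 for 53499 of 54532 genes). The counting program is not given in the sources used here. The table's columns of fold changes, p-values and group means were not used. Counts were fitted in edgeR 4.0.16 (R 4.3.3) with TMM factors, filterByExpr and the quasi-likelihood test, with only the libraries of the 2 groups compared, and p-values were adjusted over all tested genes. DESeq2 1.42.0, limma 3.58.1, other scalings, filters and left-out libraries were alternatives. The deposited FPKM were used for levels between genes and paralog ratios. Members and gene lists were chosen with earlier results of these data known. Named were the 8 largest called changes in each direction per comparison, all paralog, stalk, Mdm2-binding and ubiquitin fusion members, the 5 highest and 5 lowest and the most and least variable members, and up to 4 called genes of each other list. A few more genes (Rpl17, Rpl7a, Rps10 and Rpl15) were named after their values were seen. The scripts were tested on simulated data. A called member and a gene of another list are not reported here by name.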

Additional observations from a re-analysis of the deposited data

How the results depend on the processing

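Of 380 alternative values for single called members, 277 kept their call, 103 lost it and 0 changed direction. In comparisons with pECDCs, the fit without the third iECDC and second treated libraries drops only the library that is in the comparison. It repeats a fit that leaves out 1 library, so the 380 values hold repeats. With all 9 libraries in 1 fit, 0 rose and 0 fell in iECDCs over pECDCs, 1 and 8 in treated cells over iECDCs, and 5 and 11 in treated cells over pECDCs. Of all 14210 genes in that fit, 208 were called higher and 463 lower in the first comparison. In the second these counts were 2971 and 2879, and in the third 2432 and 2514. With the mRNA length offset (added after seeing the data) the counts were 0 and 2, 2 and 1, and 34 and 2, and the medians of the last 2 comparisons 0.12 and 0.20. Without a filter on low counts they were 6 and 3 in the first comparison and 1 and 5 in the second. DESeq2 called 5 and 11 lower in the last 2 (2162 and 2499 of all genes). Upper-quartile factors gave 1 lower in treated cells over iECDCs (1701 of all genes). At an absolute log2 fold change of at least 0.5 as well, 0 and 0 were left in the first comparison and 0 higher in the last. Without the third iECDC and second treated libraries (added after seeing the data) the counts were 11 and 2, 9 and 41, and 16 and 37. Only treated cells over iECDCs hold both libraries, so the first and last pairs are those from leaving out 1. Leaving out each library in turn gave 0 to 11 higher and 0 to 2 lower, 0 to 1 and 0 to 25, and 2 to 16 and 2 to 37, with medians of 0.04 to 0.16, -0.21 to -0.03 and -0.05 to 0.09. Over the same settings 5 to 38 assembly factors rose in iECDCs over pECDCs, 10 to 51 fell in treated cells over iECDCs and 2 to 49 over pECDCs, 4 to 65 and 9 to 69 mitochondrial ribosomal proteins fell in these 2 comparisons, and 4 to 8 TOP factors rose over pECDCs. With all 9 libraries in 1 fit no gene of the assembly, mitochondrial, TOP factor, initiation factor or polymerase I lists was called in iECDCs over pECDCs. Without both libraries 51 assembly factors and 69 mitochondrial ribosomal proteins fell in treated cells over iECDCs. Without the third iECDC library 38 assembly factors rose in iECDCs over pECDCs. Without the second treated library 49 assembly factors and 69 mitochondrial ribosomal proteins fell in treated cells over pECDCs. With the length offset 16 and 19 mitochondrial ribosomal proteins fell in the 2 comparisons of treated cells. The change in Rpl7l1 over Rpl7 in iECDCs over pECDCs, near 0, turned positive without the first pECDC library (0.0035) or the third iECDC library (0.0225), over a range of -0.0516 to 0.0225. As a share of summed FPKM the members took 10.5%, 10.6% and 11.0% in the 3 groups, and with pseudogene rows 5.28% of counts in pECDCs. The cause of these changes was not tested.

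Libraries with the same number did not deviate together (correlations of -0.274 to 0.0335). The lowest values, -0.195 and -0.274, belonged to numbers 2 and 3 in treated cells over iECDCs, where the libraries that stood apart lie. These libraries could hide a pairing, so whether the numbers pair the libraries is not settled. With the replicate number as a block, 0 members rose and 1 fell in iECDCs over pECDCs, 0 and 2 in treated cells over iECDCs and 3 and 5 in treated cells over pECDCs. Depth limits only the members at low counts, such as Rpl36al and Rpl24.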

Other observations

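Rps4l, an intronless relative of Rps4x that the annotation calls a transcribed processed pseudogene and that is therefore no member, was chosen here after its values were seen. It had 24.6, 22.4 and 21.3 normalised CPM in pECDCs, 2.79, 3.13 and 2.99 in iECDCs and 0.286, 1.92 and 0.614 in treated cells, in 3 ranges without overlap. The log2 fold change was -2.95 ± 0.12 in iECDCs over pECDCs (SE, edgeR adjusted p = 1.66e-06), -1.61 ± 0.53 in treated cells over iECDCs (adjusted p = 0.0513) and -4.52 ± 0.44 in treated cells over pECDCs (adjusted p = 0.000809).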
